A study of Mus musculus and Homo sapiens with 14 samples.

Results

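The 10 genes described here are mouse components of Notch signalling: the receptors Notch1, Notch2 and Notch3, the ligands Dll1, Dll3 and Jag1, the DNA-binding partner Rbpj, and the target genes Hes1, Hes5 and Hey1. They were taken by symbol, all 10 of them present, from tables of 35288 gene identifiers for each of the 2 mouse cell lines of the study. The set was chosen by symbol with measured TPM values of these libraries already known, among them the lower Hes5 of Oli-neu cells beside MB1. That difference is therefore given as a description with no test, and the set as a whole is not independent evidence of a direction.

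Notch receptors are cleaved when a ligand on a neighbouring cell binds them. ADAM proteases and the gamma-secretase complex release the intracellular domain, which joins RBPJ and Mastermind proteins at target genes such as Hes1, Hes5, Hey1 and Nrarp. Hes and Hey proteins are repressors that hold back proneural factors. In the oligodendrocyte lineage Notch activity is known for holding precursors back from differentiation, and in the cerebellum Notch2 and Hes1 are known for keeping granule neuron precursors dividing.

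Gene expression was measured by poly(A) RNA sequencing in 14 libraries of 3 cell lines, of which the 10 mouse libraries are used here. Oli-neu, a mouse oligodendrocyte precursor line, was grown alone, beside MB1 or beside D341, and MB1 was grown alone or beside Oli-neu, with 2 biological replicates in each of these 5 groups. MB1 came from Sonic hedgehog medulloblastomas of Atoh1-cre:SmoM2 mice at postnatal day 12, in which a Cre driven by Atoh1 switches on an active form of the receptor Smoothened. D341 is a human Group 3 medulloblastoma line, and its own table is not used here. All groups shared a DMEM/F-12 medium with B-27 and N-2 supplements and 20 ng/mL each of EGF and bFGF. Co-cultured lines were separated by a 30 mm insert whose membrane had pores of 0.4 µm, a barrier that lets medium through and keeps the cells apart. No insert is recorded for the lines grown alone. In comparisons with a line grown alone, the partner and the insert therefore cannot be told apart. Each line is a single culture line, so replicates are cultures and not animals.

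The promoter of Hes5 is shown first, because Hes5 is the member whose groups stood farthest apart in Oli-neu. Next to it are those of Hey2 and Lfng, which are among the pathway genes whose windows hold the same motif. The RefSeq windows of GRCm38.p6 run from 250 bases before to 50 bases after the annotated start, 5′ to 3′ on the strand of the gene. Capitals mark GTGGGAA, the core of the sequence that RBPJ is known to bind, or its reverse complement TTCCCAC. The Hes5 window lies at chr4:154960673-154960972 on the plus strand, the Hey2 window at chr10:30842734-30843033 on the minus strand and the Lfng window at chr5:140607091-140607390 on the plus strand.
Hes5: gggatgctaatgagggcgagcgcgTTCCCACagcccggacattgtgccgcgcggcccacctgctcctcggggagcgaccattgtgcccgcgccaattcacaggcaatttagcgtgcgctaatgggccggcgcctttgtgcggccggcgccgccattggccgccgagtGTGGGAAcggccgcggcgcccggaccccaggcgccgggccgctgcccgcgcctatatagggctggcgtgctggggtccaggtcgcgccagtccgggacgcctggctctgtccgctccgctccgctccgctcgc
Hey2: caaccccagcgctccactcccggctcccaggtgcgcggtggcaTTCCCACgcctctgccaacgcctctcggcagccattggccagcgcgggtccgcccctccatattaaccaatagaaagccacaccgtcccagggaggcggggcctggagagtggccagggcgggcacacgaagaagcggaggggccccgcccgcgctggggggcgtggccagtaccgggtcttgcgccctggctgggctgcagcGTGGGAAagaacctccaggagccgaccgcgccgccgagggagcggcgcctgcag
Lfng: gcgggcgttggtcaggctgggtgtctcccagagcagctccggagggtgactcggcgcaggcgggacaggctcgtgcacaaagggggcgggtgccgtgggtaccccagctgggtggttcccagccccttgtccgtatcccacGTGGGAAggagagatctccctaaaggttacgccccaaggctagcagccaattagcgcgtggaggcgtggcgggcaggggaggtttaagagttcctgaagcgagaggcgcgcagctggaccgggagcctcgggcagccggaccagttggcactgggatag

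The Hes5 window held the motif 2 times, once on each strand, starting 226 and 83 bases before the annotated start. The Hey2 window also held it 2 times, once on each strand, starting 207 and 4 bases before the start. Lfng held it 1 time, 109 bases before the start. Of 32851 promoter windows of this length in the table, 6.38% held GTGGGAA on either strand and 0.256% held it 2 or more times. Windows were found for 8 of the 10 members (Hes1 and Hey1 had none in the table), and Hes5 was the 1 member of these with the motif. Of the other pathway genes described below, 44 of 57 had a window and 6 held it. These were Hey2, the 1 with 2 copies, and Lfng, Aph1a, Psen2, Spen and Hes7. The shorter TGGGAA, contained in GTGGGAA, was in 25.6% of all windows and in 2 of the 8 members, Hes5 and Rbpj. A match is a string of letters in this window and shows no binding.

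Values are TPM, a transcript abundance. TPM values correct for transcript length and sum to 1000000 in each library. They carry no read counts, so depth is unknown. Between 11596 and 12338 genes reached 1 TPM, 1.93% to 9.56% of TPM was mitochondrially encoded and 25.2% to 38.2% was assigned to pseudogenes. Oli-neu alone carried 8 of 8 oligodendrocyte lineage markers at 1 TPM or more, with Sox10 at 184 ± 18.0 TPM (SD, n = 2). MB1 alone had 4 of 8 granule precursor and hedgehog tumour markers at that level, with Zic1 at 74.0 ± 14.6 TPM, Gli1 at 0.154 ± 0.0344 TPM and Barhl1 listed at 0. Summed astrocyte and radial glia markers were at 2890 to 3011 TPM in MB1 alone, mostly Fabp7, and at 314 to 343 TPM in Oli-neu alone. MB1 alone also had 7 of 8 oligodendrocyte lineage markers at 1 TPM or more, with Olig2 at 237 ± 13.2 TPM and Sox10 at 0.674 ± 0.294 TPM. Atoh1, the gene that names the Cre driver, was at 0.00715 ± 0.0101 TPM there. Microglial markers summed to at most 0.690 TPM in any library. In bulk RNA, fewer cells of a type and less RNA per cell cannot be told apart.

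Levels of the receptors were set side by side across the lines. The 2 tables hold separately scaled libraries, so differences between lines are a description and were not tested. Notch1, the main receptor by TPM in both lines, was at 16.7 and 38.0 TPM in Oli-neu alone and at 76.1 and 51.2 TPM in MB1 alone. The libraries of MB1 alone lay above those of Oli-neu alone, while the replicates of each line differed widely. Notch1 made up 85.4% to 92.3% of the summed TPM of Notch1 to Notch4 in the 6 Oli-neu libraries and 76.7% to 87.8% in the 4 MB1 libraries. Notch2 was low in both lines, at 2.29 and 2.44 TPM in Oli-neu alone and 4.28 and 3.90 TPM in MB1 alone. Notch3 separated the lines most clearly among the receptors. It was at 0.177 and 0.162 TPM in Oli-neu alone and at 5.76 and 7.47 TPM in MB1 alone, and all 4 MB1 libraries lay above all 6 Oli-neu libraries.

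The ligands differed in kind between the lines. Dll1, which activates receptors on neighbouring cells, was at 4.09 and 5.44 TPM in Oli-neu alone and at 36.0 and 35.0 TPM in MB1 alone. Dll3, a divergent Delta that is known to act inside the cell on Notch of the same cell rather than to activate neighbours, had the opposite order, with 21.4 and 30.4 TPM in Oli-neu alone and 7.73 and 6.74 TPM in MB1 alone. Jag1 was also higher in Oli-neu alone, at 20.7 and 18.8 TPM against 11.5 and 7.80 TPM in MB1 alone. Of the summed TPM of Dll1, Dll3, Dll4, Jag1 and Jag2, Dll1 made up 5.46% to 8.39% in the Oli-neu libraries and 54.5% to 66.1% in the MB1 libraries. The summed ligand level itself overlapped between the lines grown alone, at 53.1 and 64.8 TPM in Oli-neu and 57.3 and 52.9 TPM in MB1. No library of one line overlapped the other for Dll1, Dll3 or Jag1.

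Rbpj was at 6.68 and 6.69 TPM in Oli-neu alone and 10.2 and 11.3 TPM in MB1 alone, a modest distance beside those of the target genes. Hes1 was at 26.2 and 22.2 TPM in Oli-neu alone and at 76.7 and 98.0 TPM in MB1 alone. Hes5 was at 18.2 and 17.5 TPM against 45.3 and 47.4 TPM, and Hey1 at 7.74 and 7.74 TPM against 21.2 and 26.2 TPM, in the same order of lines. For all 3 targets every MB1 library, also those from co-culture, lay above every Oli-neu library. Within each line grown alone the order by TPM was Hes1, then Hes5, then Hey1, with no overlap between neighbours in that order.

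Other target and modifier genes divided the lines further. Nrarp, a target that limits Notch activity, was at 12.4 and 11.1 TPM in MB1 alone, and was listed at 0 in 4 of the 6 Oli-neu libraries with at most 0.0187 TPM in the others. Lfng, the Lunatic fringe sugar transferase that changes which ligands a receptor answers, was at 59.0 and 46.6 TPM in MB1 alone and 1.44 and 1.43 TPM in Oli-neu alone. Hey2, a relative of Hey1, had the opposite order, with 7.06 and 6.96 TPM in Oli-neu alone and 0.873 and 0.821 TPM in MB1 alone. Hey2 and Lfng, which share the motif with Hes5, were thus each low in a different line. Of the other pathway genes with the motif, Aph1a and Spen had higher means in MB1 alone and Psen2 in Oli-neu alone. Hes7 was under 1 TPM in both. Hes6, which is known to counteract Hes1, was similar in both, at 66.1 and 75.0 TPM in Oli-neu alone and 53.0 and 85.0 TPM in MB1 alone.

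**Figure D1:**
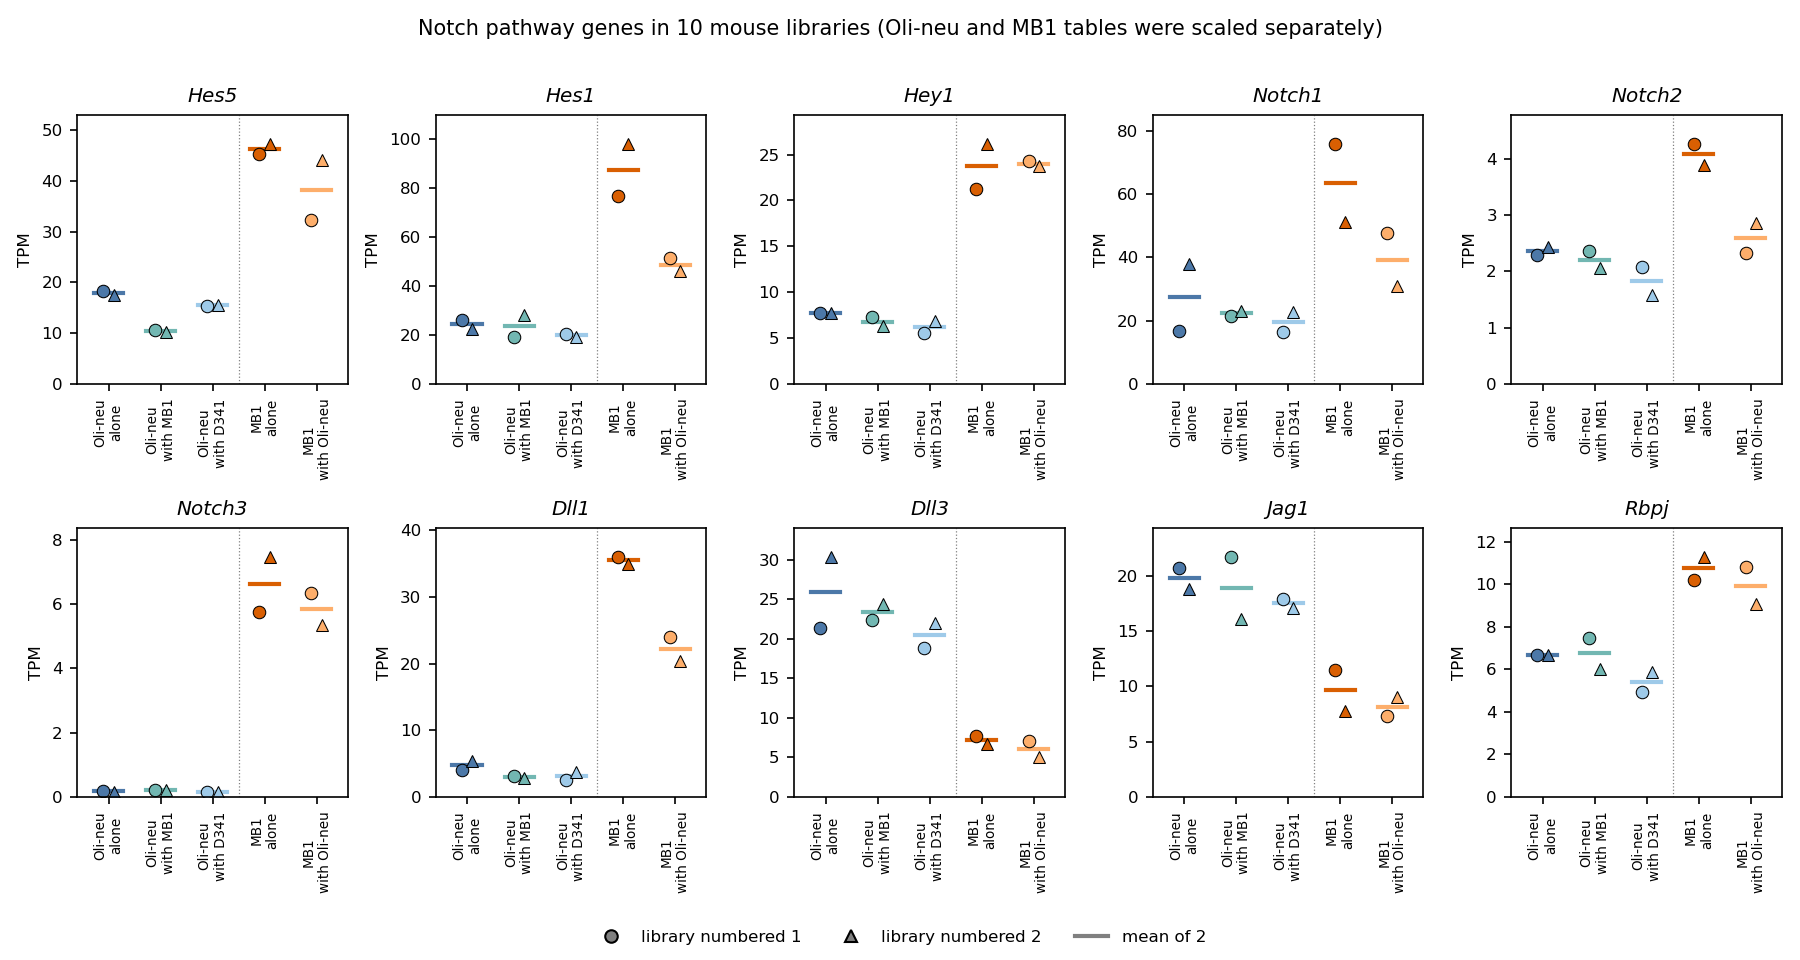
TPM (y axis, linear, from 0) of the 10 genes in the 5 mouse culture groups (x axis), where circles are libraries numbered 1, triangles those numbered 2 and bars the mean of both. Hes5 of Oli-neu with MB1 (10.5 and 10.2 TPM) lies below the other 4 Oli-neu libraries, and Hes1, Notch1, Notch2 and Dll1 of MB1 with Oli-neu lie below MB1 alone.

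Oli-neu beside MB1 was compared with Oli-neu alone, to see how the precursor line differs when it shares medium with the mouse tumour line. Hes5, on chromosome 4 from 154960923 to 154962371 of GRCm38, was at 18.2 and 17.5 TPM alone and at 10.5 and 10.2 TPM beside MB1. The groups did not overlap, and the mean beside MB1 was 58.1% of that alone. On the log2(TPM + 1) scale the fold change came to -0.73 (standard error, SE, 0.09). Pairing libraries by their replicate number gave -0.74 for number 1 and -0.72 for number 2. Hes1 did not share this distance, with 26.2 and 22.2 TPM alone and 19.2 and 28.2 TPM beside MB1 (log2 fold change -0.05, SE 0.21). By replicate number its difference was -0.43 for number 1 and 0.33 for number 2, on opposite sides of 0. Hey1 lay slightly lower, at 7.74 and 7.74 TPM alone and 7.27 and 6.26 TPM beside MB1 (log2 fold change -0.17, SE 0.13). The ratio of Hes5 to Hes1 TPM was 0.694 and 0.786 alone, 0.549 and 0.361 beside MB1, and 0.749 and 0.812 beside D341.

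Among the tested ligands and receptors, Dll1 was the 1 whose groups did not overlap, at 4.09 and 5.44 TPM alone and 3.07 and 2.82 TPM beside MB1 (log2 fold change -0.54, SE 0.20). The overlap was wide for Dll3 (log2 fold change -0.12, SE 0.20), Jag1 (-0.07, SE 0.17), Notch2 (-0.07, SE 0.15) and Rbpj (0.01, SE 0.14). Notch1 was at 21.6 and 23.1 TPM beside MB1, between the 2 libraries of Oli-neu alone (log2 fold change -0.17, SE 0.40). Its estimate became 0.40 when replicate 2 of Oli-neu alone was left out and -0.74 when replicate 1 was. Notch3 was at 0.201 and 0.211 TPM beside MB1, above the 0.177 and 0.162 TPM alone without overlap, but below the 1 TPM in 2 libraries that a gene needed to be tested.

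Over all genes limma called 0 of 12280, 0.00%, at an adjusted p under 0.05, and 747 genes, 6.08%, were under an unadjusted p of 0.05 (4.65% lower and 1.43% higher). With the replicate number as a block 1305 genes were, and without Oli-neu alone replicate 1 there were 426. So 0 of the 9 tested members passed, and the counts below include Hes5, whose lower value was known when the set was chosen. Of those 9, 8 had a lower mean, against 62.6% of all genes tested, and 3 (Hes5, Hey1 and Dll1) had both libraries below both of Oli-neu alone, against 24.0% of all genes tested. In the other direction Rbpj had a higher mean, as did 37.4% of all genes, and 0 of the 9 lay fully above Oli-neu alone, as 10.1% of all genes did. The median log2 fold change of the 9 was -0.12 and that of all genes -0.06. With columns scaled by median ratios the log2 fold change of Hes5 was -0.66 and that of Hes1 0.02. Mitochondrially encoded genes held 3.28% and 4.53% of TPM beside MB1 and 1.93% and 4.002% alone, and their part in these differences was not tested. Nrarp, which MB1 expresses, was listed at 0 in both libraries of Oli-neu beside MB1. Other genes higher in MB1 stood on both sides. Dlk1 was listed at 0 in both libraries alone and at 0 and 0.183 TPM beside MB1. Higher means beside MB1 were also found for Dtx1 (0.323 against 0.216 TPM), the astrocyte marker Aldh1l1 (0.154 against 0.0383 TPM) and Zic1 (0.0185 against 0.00235 TPM). Lfng and Dner had lower means beside MB1. These genes are examples and not a count of either side. Where such low values come from was not tested.

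Of the 57 other pathway genes, 43 were tested, 0 passed, 21 had a higher and 22 a lower mean. Hes6 lay lower beside MB1, at 42.0 and 53.7 TPM against 66.1 and 75.0 TPM alone (log2 fold change -0.56, SE 0.17, limma adjusted p = 0.759). Hey2, on chromosome 10, lay higher, at 10.3 and 9.20 TPM against 7.06 and 6.96 TPM (log2 fold change 0.42, SE 0.10, limma adjusted p = 0.715). Hes5 and Hey2, whose promoter windows both hold the RBPJ core 2 times, thus stood on opposite sides of Oli-neu alone. Psen2, a catalytic subunit of gamma-secretase, was at 16.7 and 19.7 TPM against 12.4 and 14.8 TPM, and the coactivator Crebbp at 21.2 and 30.4 TPM against 19.4 and 19.9 TPM. All 4 tested glycosyltransferases had both libraries below those of Oli-neu alone, with a median of -0.12, where 24.0% of all genes did and the median of all genes was -0.06. The 10 tested nuclear partners had a median of 0.09, with 8 higher and 2 lower. These lists were not tested as groups.

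Oli-neu beside D341 was compared with the same Oli-neu alone libraries, so the 2 co-culture comparisons share their controls. Hes5 was at 15.3 and 15.6 TPM beside D341, closer to its level alone than beside MB1 (log2 fold change -0.19, SE 0.09). This too is a description, since its values in Oli-neu alone belong to the difference known when the set was chosen. Hes1 was at 20.4 and 19.3 TPM (log2 fold change -0.27, SE 0.21, adjusted p = 0.561) and Hey1 at 5.58 and 6.85 TPM (-0.28, SE 0.13, adjusted p = 0.400), by limma. Dll1 was at 2.51 and 3.69 TPM, similar to its level beside MB1 (log2 fold change -0.50, SE 0.20, limma adjusted p = 0.365). Rbpj was at 4.93 and 5.88 TPM (-0.27, SE 0.14), Notch2 at 2.09 and 1.59 TPM (-0.25, SE 0.15) and Jag1 at 17.9 and 17.1 TPM (-0.16, SE 0.17). Dll3 (-0.31, SE 0.20) and Notch1 (-0.38, SE 0.40) overlapped with Oli-neu alone, and Notch1 turned to 0.19 when replicate 2 of Oli-neu alone was left out.

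Of 12280 genes, limma called 0, 0.00%, and 1684, 13.7%, were under an unadjusted p of 0.05 (12.1% lower and 1.61% higher). With the replicate number as a block 2566 genes were. The count was 807 without Oli-neu alone replicate 1, 933 without its replicate 2, 871 when replicate 1 of Oli-neu with D341 was left out and 1053 when its replicate 2 was. Of the 9 tested members, 0 passed either threshold. All 9 had a lower mean, against 75.8% of all genes tested, and 7 did not overlap with Oli-neu alone, against 44.0% of all genes tested. A higher mean, seen in 24.1% of all genes, and both libraries above Oli-neu alone, seen in 7.12%, were each found in 0 of the 9. The median of the 9 was -0.27 and that of all genes -0.16. Median-ratio scaling brought the median of all genes to 0.00 and that of the 9 to -0.12, with Hes5 at -0.02, Dll1 at -0.35 and Jag1 on the other side at 0.01.

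Of the 43 tested pathway genes outside the 10, 0 passed beside D341, 13 had a higher and 30 a lower mean. Poglut1, which adds glucose to the repeats of the Notch extracellular domain, was at 7.80 and 7.67 TPM against 11.6 and 13.2 TPM alone (log2 fold change -0.62, SE 0.10, limma adjusted p = 0.320). Aph1a, a subunit of gamma-secretase, was at 20.7 and 26.4 TPM against 42.8 and 28.4 TPM (-0.56, SE 0.23), with a wide distance between the 2 libraries of Oli-neu alone. Psen2 was at 15.7 and 22.0 TPM and lay above Oli-neu alone (0.43, SE 0.20), as it did beside MB1. Hes6 was at 50.7 and 58.6 TPM (-0.36, SE 0.17). The glycosyltransferases had both libraries below the same Oli-neu alone libraries in 4 of 4 tested genes, with a median of -0.34, where 44.0% of all genes did and the median of all genes was -0.16.

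The 2 partners were then compared directly, as Oli-neu beside D341 against Oli-neu beside MB1. These libraries include those that set Hes5 apart, so its value is a description: 15.3 and 15.6 TPM with D341 against 10.5 and 10.2 TPM with MB1 (log2 fold change 0.54, SE 0.09). The groups did not overlap, and over the 3 Oli-neu groups the order of Hes5 was alone, beside D341 and beside MB1 with no overlap between neighbours. Of 12280 genes, 0.00% were called by limma and 630, 5.13%, were under an unadjusted p of 0.05 (0.79% higher and 4.34% lower). With the replicate number as a block 1114 genes were. Leaving out Oli-neu with MB1 replicate 1 gave 411 and leaving out its replicate 2 gave 1208. Leaving out Oli-neu with D341 replicate 1 gave 371. Of 9 tested members 0 passed, and 7 had a lower and 2 a higher mean with D341, against 68.5% and 31.5% of all genes. Hes5 was the 1 tested member with both libraries higher, against 6.60% of all genes tested, and Dll3 and Rbpj had both lower, against 28.8%. Dll1 (log2 fold change 0.04, SE 0.20, 95% interval -0.46 to 0.54) and Jag1 (-0.09, SE 0.17, 95% interval -0.51 to 0.33) overlapped. The median of the 9 was -0.18 and that of all genes -0.09. Among other pathway genes Aph1a (-0.54, SE 0.23), Poglut1 (-0.45, SE 0.10), Aph1b, another gamma-secretase subunit (-0.39, SE 0.14), and Mib1, a ligase that drives ligand endocytosis (-0.26, SE 0.13), lay lower with D341, each with a limma adjusted p = 0.839.

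**Figure D2:**
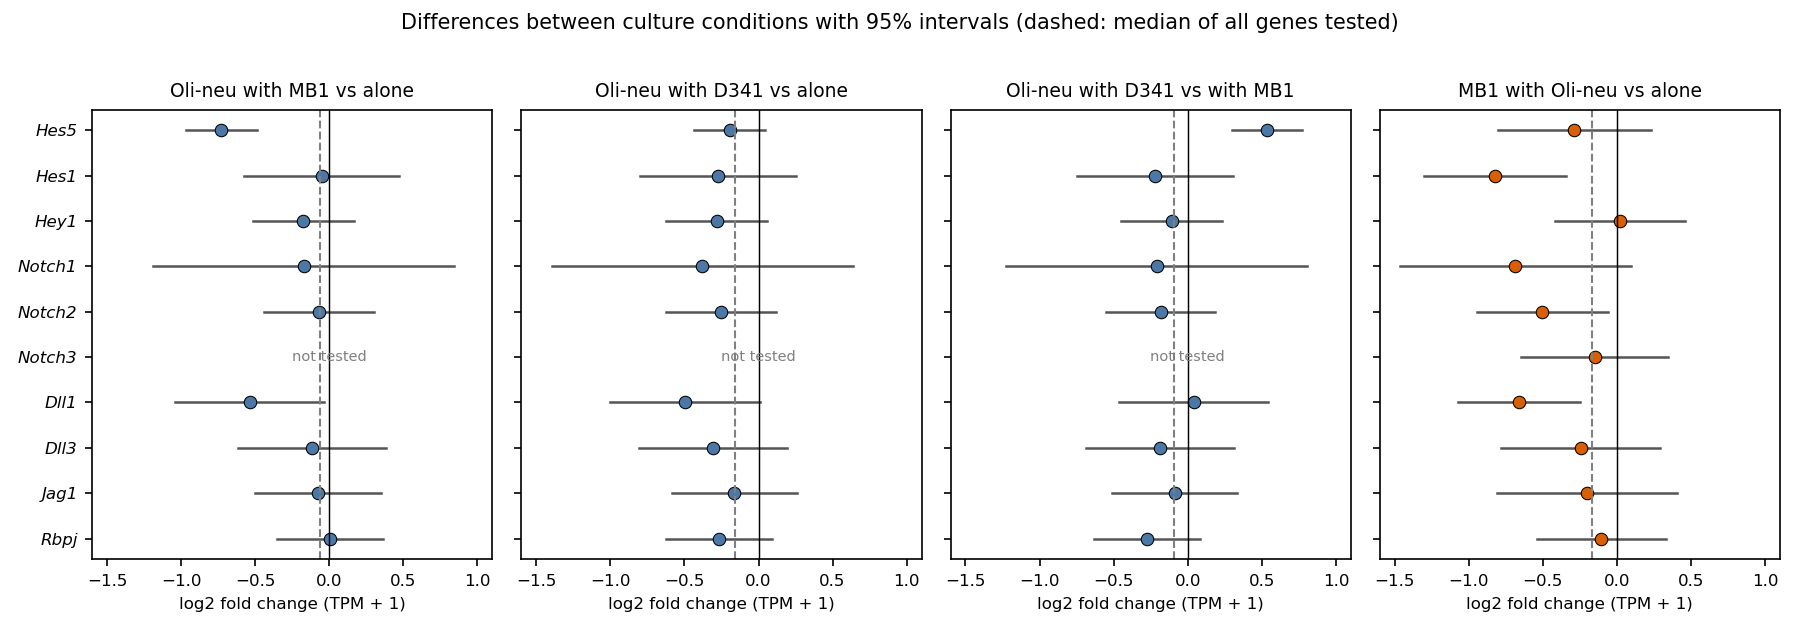
Log2 fold change on log2(TPM + 1) (x axis) of the 10 genes (y axis) in the 4 comparisons, where points are estimates, bars 95% intervals of the limma fit and the dashed line the median of all genes tested. Hes5 stands at -0.73 beside MB1 and at 0.54 in the direct comparison of partners, and Hes1, Notch1 and Dll1 of MB1 lie left of the median of -0.17. The Hes5 bars in the Oli-neu comparisons are a description and no test, since its difference was known when the set was chosen.

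MB1 beside Oli-neu was compared with MB1 alone, to see how the tumour line differs in the shared medium. Hes1, on chromosome 16 from 30064384 to 30067796 of GRCm38, was at 76.7 and 98.0 TPM alone and at 51.1 and 46.1 TPM beside Oli-neu. The groups did not overlap and the mean beside Oli-neu was 55.6% of that alone (log2 fold change -0.82, SE 0.19, limma adjusted p = 0.282). Hes5 was at 45.3 and 47.4 TPM alone and 32.4 and 44.1 TPM beside Oli-neu (log2 fold change -0.29, SE 0.20, limma adjusted p = 0.481). Hey1 overlapped, with 21.2 and 26.2 TPM alone and 24.3 and 23.7 TPM beside Oli-neu (0.02, SE 0.17, 95% interval -0.41 to 0.46). Of the 3 targets, Hes1 thus stood farthest from its level alone in MB1 and Hes5 in Oli-neu beside MB1. Whether these responses differ between the lines was not tested.

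The ligand Dll1, on chromosome 17 from 15367354 to 15376872, was at 36.0 and 35.0 TPM alone and 24.0 and 20.3 TPM beside Oli-neu (log2 fold change -0.66, SE 0.16, limma adjusted p = 0.282). Its mean beside Oli-neu was 62.4% of that alone. Notch1, on chromosome 2 from 26457903 to 26516663, was at 76.1 and 51.2 TPM alone and 47.7 and 30.9 TPM beside Oli-neu (-0.69, SE 0.30, limma adjusted p = 0.347). The replicates of each group lay far apart, and over the alternatives the Notch1 estimate ran from -0.99 to -0.38. Notch2 was at 4.28 and 3.90 TPM alone and 2.34 and 2.86 TPM beside Oli-neu (-0.50, SE 0.17, limma adjusted p = 0.301). Notch3 (-0.15, SE 0.19), Dll3 (-0.24, SE 0.21), Jag1 (-0.20, SE 0.23) and Rbpj (-0.11, SE 0.17) overlapped between the groups.

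Over all genes limma called 0 of 12407 in MB1, 0.00%, with 1944, 15.7%, under an unadjusted p of 0.05 (12.6% lower and 3.02% higher). Of the 10 members 0 passed, and Hes1, Notch2 and Dll1 lay under the unadjusted 0.05 in the lower direction. Without MB1 alone replicate 1 the fit called 112 genes, of which 0 were members. The count at the unadjusted 0.05 was 813 without MB1 with Oli-neu replicate 1 and 811 without its replicate 2. Of the 10, 9 had a lower mean, against 70.9% of all genes tested, and 5 (Hes1, Hes5, Notch1, Notch2 and Dll1) had both libraries below MB1 alone, against 41.5%. Hey1 had a higher mean, as did 29.1% of all genes, and 0 members lay fully above MB1 alone, against 10.9%. Their median was -0.27 and that of all genes -0.17. Median-ratio scaling brought the median of all genes to -0.00 and that of the 10 to -0.09. Hes1 was then at -0.64, Notch1 at -0.50, Dll1 at -0.48 and Hes5 at -0.10, while Notch3 (0.01) and Rbpj (0.07) changed side and Hey1 was at 0.21. Summed astrocyte and radial glia markers were at 2148 to 2283 TPM beside Oli-neu, below the 2890 to 3011 TPM alone. Within this sum only Fabp7 had a lower mean, 1783 against 2593 TPM. Slc1a3 (412 against 343 TPM), Gfap, Aqp4 and Aldh1l1 had higher means. Summed granule precursor markers were at 167 to 193 TPM against 132 to 149 TPM alone. The list was split, with higher means of Zic1 (113 against 74.0 TPM), Zic2 and, by a small margin, Ptch1 (16.6 against 16.3 TPM). Pax6 (20.4 against 24.1 TPM), Gli1, Gli2 and Atoh1 had lower means, and Barhl1 was listed at 0. Of these, Gli1 (0.127 against 0.154 TPM), Gli2 (0.181 against 0.458 TPM) and Atoh1 (0 against 0.00715 TPM) were under 1 TPM in both groups. Summed oligodendrocyte lineage markers were at 635 to 764 TPM against 940 to 1099 TPM, mostly Olig1 and Olig2. The part of these markers in the Notch values was not tested.

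Of the 57 other pathway genes 45 were tested in MB1, 0 passed, 11 had a higher and 34 a lower mean. Nrarp was at 8.19 and 6.69 TPM beside Oli-neu against 12.4 and 11.1 TPM alone (log2 fold change -0.60, SE 0.17, limma adjusted p = 0.285). Spen, a corepressor that binds RBPJ, was at 8.58 and 7.80 TPM against 15.6 and 9.20 TPM (-0.50, SE 0.27), and Poglut1 at 14.5 and 13.3 TPM against 19.5 and 17.7 TPM (-0.40, SE 0.15). Dlk1, a ligand-like protein without the domain that binds and activates Notch, lay higher at 6.53 and 9.68 TPM against 5.69 and 5.91 TPM (0.40, SE 0.22). All 9 tested nuclear partners had a lower mean, as 70.9% of all genes did, with a median of -0.39, and 2 of them had a higher value with median-ratio scaling.

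**Figure D3:**
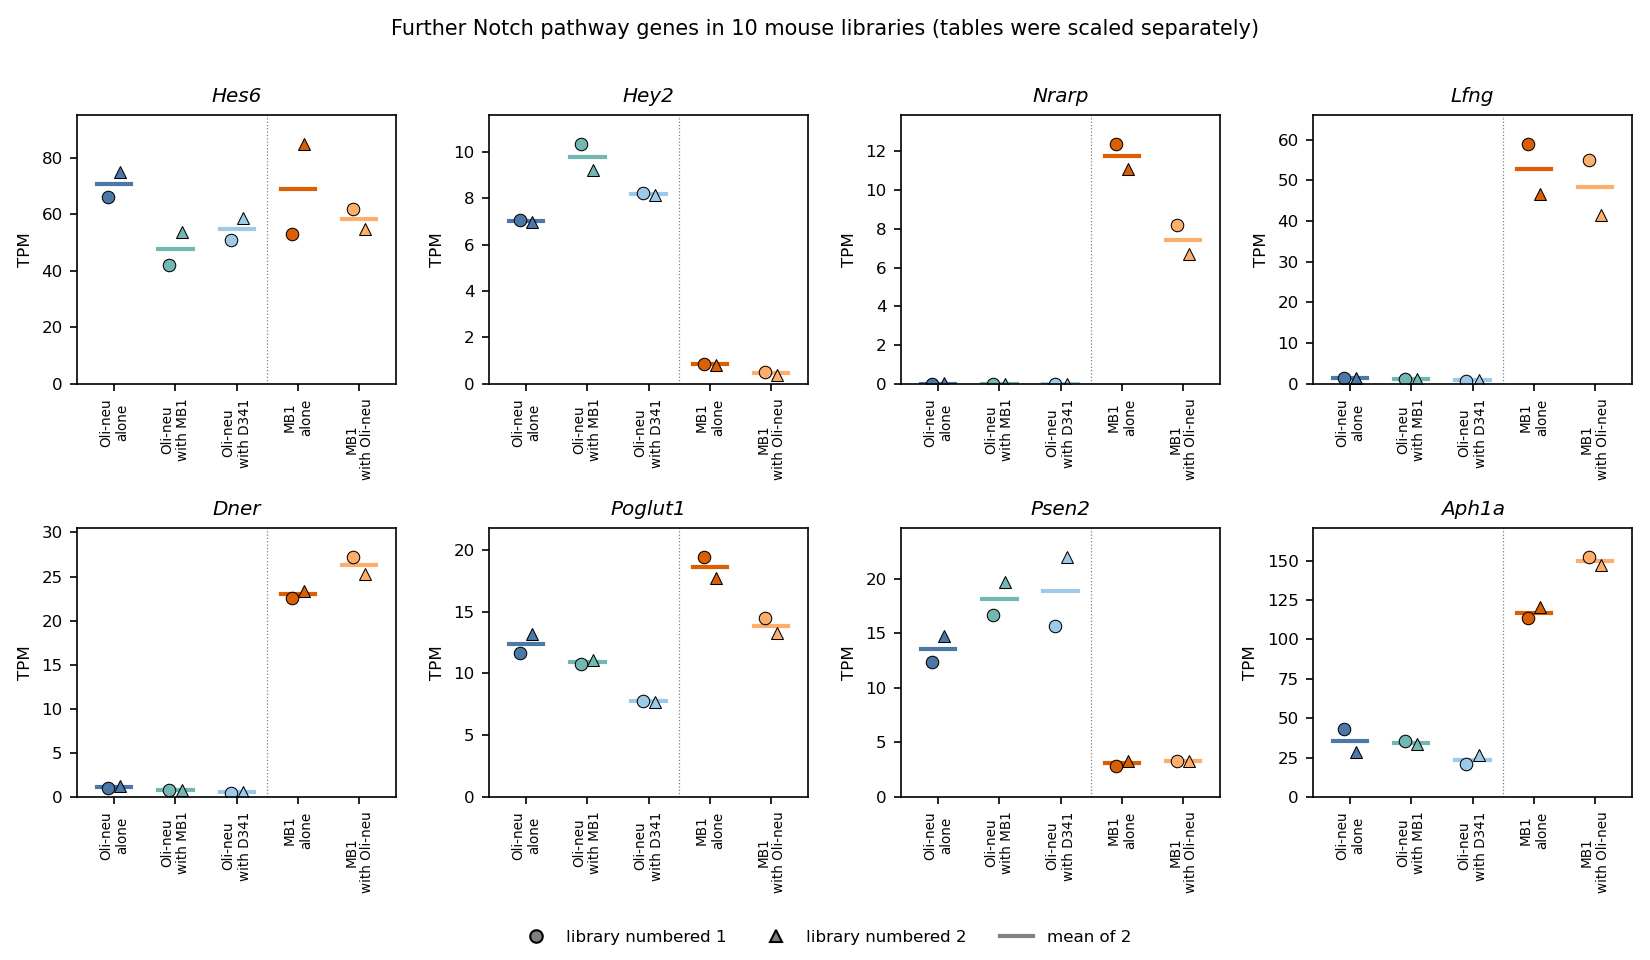
TPM (y axis, linear, from 0) of 8 further pathway genes in the 5 mouse groups (x axis), with circles for libraries numbered 1, triangles for those numbered 2 and bars for the mean. Hey2 is highest beside MB1 (10.3 and 9.20 TPM) in Oli-neu, Nrarp and Lfng stand out in MB1, and Poglut1 beside D341 (7.80 and 7.67 TPM) lies below the other Oli-neu groups.

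**Figure D4:**
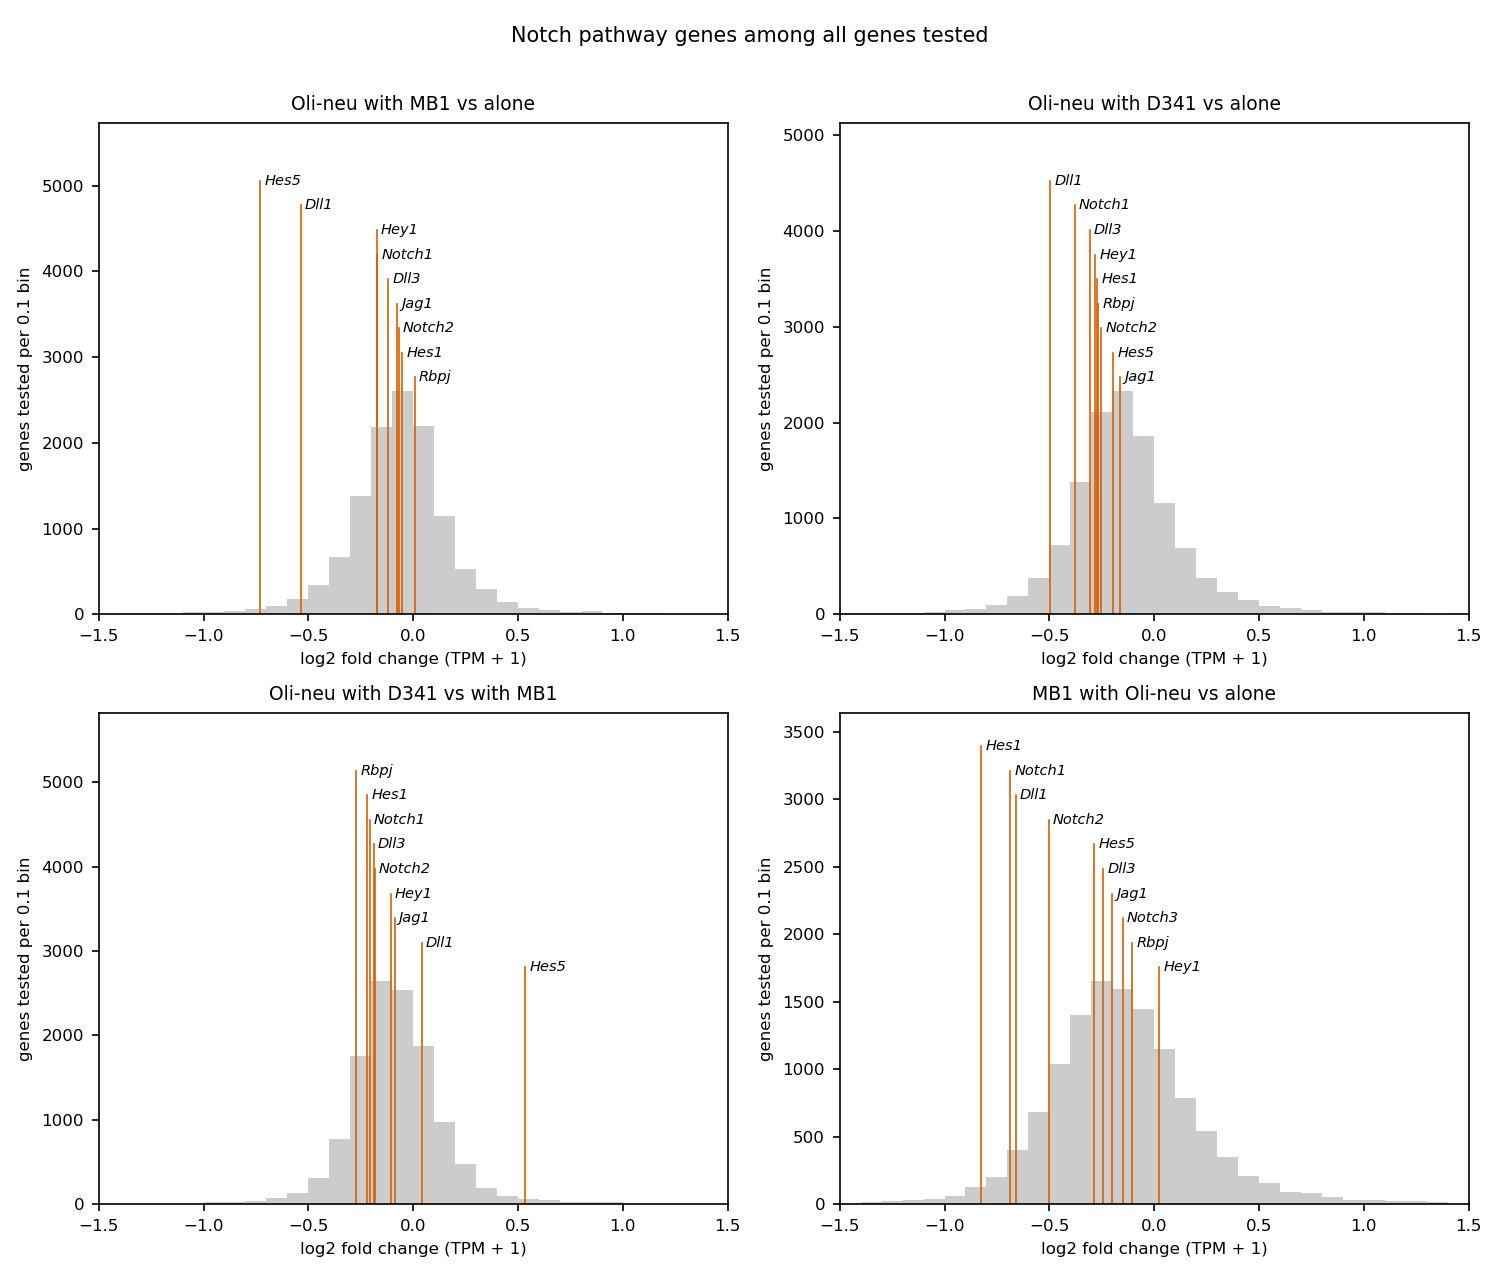
Histograms of the log2 fold change on log2(TPM + 1) (x axis) of all genes tested (grey, y axis in genes per bin of 0.1) in each comparison, with an orange line at each tested member, whose height has no meaning. Hes5 lies in the left tail beside MB1 at -0.73 and in the right tail between partners at 0.54, and most other members lie within the body of the distribution.

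The genes whose profile was most like that of Hes5 were looked for over the 6 Oli-neu libraries by Pearson correlation of log2(TPM + 1), as a description. Of 7356 protein-coding genes at a mean of 5 TPM or more, 26, 0.353%, had r of at least 0.9. The ranking uses the Hes5 values that were known when the set was chosen. Over 6 libraries a high r can also arise by chance among so many genes, and how often was not tested. The genes named are therefore no evidence of a link to Hes5. The 5 nearest were Rogdi (r = 0.979), BC055324 (0.967), Kazn (0.959), Srp9 (0.953), which encodes a subunit of the signal recognition particle, and Rpa2 (0.952), which binds single-stranded DNA in replication. Kazn had means of 8.74 TPM alone, 4.40 TPM beside MB1 and 8.18 TPM beside D341, while the group means of Srp9 spanned only 52.4 to 60.1 TPM. Among the other members, r with Hes5 was 0.63 for Dll1, 0.33 for Hey1, 0.14 for Jag1, 0.05 for Dll3, 0.04 for Notch1, -0.01 for Notch2, -0.07 for Hes1 and -0.19 for Rbpj. It was -0.81 for Notch3, which was at 0.211 TPM or less in these libraries, and 0.77 for Hes6 and -0.93 for Hey2 of the family. These libraries share 1 line.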

How the data were processed

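TPM per gene was taken as deposited by the authors, 1 table per line. The submitters' processing notes name Salmon 0.14.1 and DESeq2 1.22.2 with the builds GRCm38 and GRCh38, and the annotation release is not given in the sources used here. TPM holds no counts, so no count test was run. Symbols and positions came from GENCODE on GRCm38, which matched 35028 of 35288 identifiers, and promoter windows from RefSeq. A gene was tested if 2 libraries of its table reached 1 TPM. Tests used limma 3.58.1 on log2(TPM + 1), two-sided, with a mean-variance trend and Benjamini-Hochberg adjustment over all genes (threshold 0.05), in 1 fit of the 6 Oli-neu libraries and another of the 4 MB1 libraries. The procedure was run on simulated data with independent noise in each library. That simulation held no effect shared by same-numbered libraries, so it does not cover such an effect in the real data. Same-numbered Oli-neu libraries deviated together (r = 0.593 to 0.618 across genes), a hint of pairing from the data and not from the labels. In MB1 r was -0.115. The reported fits held the group alone, so their SE, intervals and p-values make no use of pairing. The replicate number entered as a block only in an alternative.

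Members and lists were chosen with earlier results of these data known. Besides members, the text names per comparison up to 4 pathway genes averaging 5 TPM or more in a group, without overlap and with the largest log2 fold changes. Other pathway genes were named after their values were seen. Alternatives were other pseudocounts, filters, scalings and fits, the replicate number as a block, and leaving out each library. Protein-coding genes alone and a crossed block were added after seeing the data.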

Additional observations from a re-analysis of the deposited data

Results flagged for a closer look

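Co-culture differences that pointed opposite ways in the 2 mouse lines, with no overlap between groups in either, were found for 4 of the 67 genes looked at, 0 of them members. Of the 49 of these genes tested in both lines the share was 6.12% (3 genes), and of all 11182 genes tested in both it was 4.08%, so the count says little about these genes in particular. The difference between the lines was not tested, since the tables were scaled separately. Hey2 stood at 0.42 on the log2(TPM + 1) scale in Oli-neu beside MB1 and at -0.35 in MB1 beside Oli-neu, where it was under 1 TPM. Dner, a Notch ligand of neurons, stood at -0.27 in Oli-neu and at 0.18 in MB1. Dtx2, which binds Notch inside the cell, stood at 0.13 and -0.18, and the proneural factor Neurod1 at -0.24 and 0.25.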

How the results depend on the processing

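In all 4 comparisons the number of members past the threshold was 0 under every alternative run. Gene counts were 0 in the reported fits and moved under some alternatives. Beside MB1, Oli-neu had 3 called when 0.1 TPM was added before the logarithm, 1 without a filter, 2 with median-ratio scaling, 1 without a trend and 2 with protein-coding genes only. Beside D341 it had 3 without a filter and 1 with protein-coding genes only. Between partners it had 6 without a filter, 1 without a trend and 1 with protein-coding genes only, and MB1 had 5 with protein-coding genes only. With each library left out in turn the counts were 0 for Oli-neu beside MB1, 0 to 2 beside D341, 0 to 3 between partners and 1 to 112 in MB1. The 2 and the 3 came without Oli-neu with D341 replicate 2, and the 112 without MB1 alone replicate 1. With the replicate number as a block 0 genes and 0 members were called in each comparison, so it changed no call, though it raised the Oli-neu counts at an unadjusted p under 0.05 to 1305, 2566 and 1114 and gave 1344 in MB1. With crossed numbers in MB1 0 genes were called. Hes5 kept its sign in all 14 alternatives beside MB1, from -0.78 to -0.57. This is a description, since the difference was known when the set was chosen and the same libraries were refitted. Hes1 of MB1 kept its sign in all 14, from -0.999 to -0.64. Among all members the sign changed in 7 of 124 values beside MB1, 2 of 124 beside D341, 7 of 124 between partners and 6 of 139 in MB1. Depth is unknown, so low values such as those of Notch3 in Oli-neu have no counting error.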

Other observations

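Genes of Notch processing were measured at very different levels. Psenen, the smallest subunit of gamma-secretase, was at 755 and 578 TPM in Oli-neu alone and 549.9 and 721 TPM in MB1 alone, while Ncstn, another subunit, was at 28.6 and 32.7 TPM and 41.1 and 41.6 TPM. Notch4 was higher in the library numbered 2 of each of the 5 groups, for example 0.0508 and 0.588 TPM in Oli-neu alone and 0.520 and 4.09 TPM in MB1 alone. The same order held for Mib2 (35.7 and 41.9 TPM in Oli-neu alone), Dlk2, Psen2 and Kdm5a, so it is not particular to Notch4. The share of all genes with this order was not counted.

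Other pathway genes also divided the lines grown alone. Jag2 was at 6.89 and 10.03 TPM in Oli-neu and 1.98 and 3.13 TPM in MB1, and Dlk2 at 7.54 and 8.52 TPM against 0.678 and 0.757 TPM. The ligand Dner was at 1.03 and 1.26 TPM in Oli-neu and 22.6 and 23.4 TPM in MB1, and Dtx1, a regulator of Notch inside the cell, at 0.287 and 0.145 TPM against 8.48 and 6.01 TPM.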
